A study of Mus musculus with 2 samples.

Results

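The miR-23, miR-27 and miR-24 microRNAs of the mouse are made from 2 paralogous hairpin clusters, and their 6 hairpins were followed in microRNA sequencing of the adrenal gland. The members were taken by gene name in GENCODE M21, and are 6 of the 2202 microRNA genes counted. The a cluster on chromosome 8 holds Mir23a, Mir27a and Mir24-2, and the b cluster on chromosome 13 holds Mir23b, Mir27b and Mir24-1. Whole adrenal gland tissue came from male mice of the strain B6CASTF1/J, a cross of C57BL/6J with CAST/EiJ, aged 25 days, with no treatment. There was 1 group with 2 biological replicates and nothing to compare it with. Per the labels, total RNA was used and molecules under 30 bases were selected, and both mice carry the same donor entry although they are numbered separately. Nothing else says that the libraries are independent, so the differences between them, and the SDs, may be technical. The p-values below hold counting error only and do not measure that spread.

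MicroRNAs of a cluster are cut as hairpins from 1 long primary transcript by Drosha and DGCR8, then trimmed by Dicer to a short duplex, of which 1 arm is usually kept in an Argonaute protein. The seed, bases 2 to 8 of that arm, guides it to target messages. The miR-23, miR-27 and miR-24 clusters are expressed in many tissues and are known from endothelial cells and the growth of blood vessels. miR-27 is also known to restrain adipocyte differentiation through Pparg, miR-23 to repress glutaminase and miR-24 to repress cell cycle genes. The adrenal gland, a steroid-producing cortex around a catecholamine-producing medulla, is richly supplied with capillaries.

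The mature sequences below show how far the forms of each microRNA can be told apart, which sets what a count of each hairpin can measure. They are from RefSeq (GRCm38.p6), 5′ to 3′, with the seed in capitals. The table used here held all 6 hairpins, each identical to the GENCODE sequence, and 11 mature entries, with no entry for miR-23b-3p.
miR-23a-3p: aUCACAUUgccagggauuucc
miR-27a-3p: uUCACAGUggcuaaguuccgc
miR-27b-3p: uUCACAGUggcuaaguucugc
miR-24-3p, from both Mir24-2 and Mir24-1: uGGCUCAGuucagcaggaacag
miR-24-2-5p: gUGCCUACugagcugaaacagu
miR-24-1-5p: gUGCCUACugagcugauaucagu
miR-128-3p, a relative of miR-27: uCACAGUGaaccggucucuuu

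The 2 miR-27 forms share the whole seed and differ by 1 base of 21, C19U, counted from the 5′ end of miR-27a-3p. The first 18 bases of miR-23a-3p likewise occur in the Mir23b hairpin, so that base 19 is the first that tells them apart. A read of a miR-23 or miR-27 3p arm that starts at its first base thus had to reach base 19 to be placed at 1 hairpin. The miR-24-3p sequence is the same at both loci over all 22 bases, within a run of 28 bases that Mir24-2 and Mir24-1 share. A read lying inside that run is the same for both hairpins. The miR-24 5p arms share their first 16 bases and differ from base 17 on. The opposite arms of the other hairpins are more distinct. miR-27a-5p and miR-27b-5p differ at 8 of 22 bases.

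All 6 hairpins share at least 20 bases with their paralog and, over such a window, with no other annotated hairpin. Detected genes are those that reached 10 counts in each library, 352 in all, and of these 89 (25.3%) share such a stretch with another hairpin. The deposited tables kept reads that map to several places out of the gene counts, and these made up 31.6% of the input reads of replicate 1 and 27.0% of those of replicate 2. The counts of Mir24-2 and Mir24-1 therefore leave out miR-24-3p reads within the shared run, and the levels below are no measure of total miR-24. The tables count reads per hairpin, so the 5p and 3p arms were not separated.

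The a cluster lies outside annotated host genes, and the b cluster lies inside 2010111I01Rik, a protein-coding gene on the same strand. In mm10, Mir23a (ENSMUSG00000065611.1) spans bases 84208518 to 84208592 of chromosome 8, Mir27a (ENSMUSG00000065444.1) 84208672 to 84208758 and Mir24-2 (ENSMUSG00000065541.1) 84208815 to 84208921, all on the plus strand. The last 2 bases of Mir24-2 overlap the noncoding Gm26532. On chromosome 13, also on the plus strand, Mir23b (ENSMUSG00000065599.2) spans bases 63300484 to 63300557, Mir27b (ENSMUSG00000065475.2) 63300712 to 63300784 and Mir24-1 (ENSMUSG00000105904.1) 63301208 to 63301275. Mir23b is intronic, while Mir27b and Mir24-1 each lie entirely within an exon of at least 1 annotated 2010111I01Rik transcript. The Fanconi anaemia gene Fancc runs across the b cluster on the other strand. The a cluster is the more compact, with 404 bases from end to end against 792 for the b cluster. Opposite Mir24-2 and Mir24-1, on the minus strand, GENCODE annotates the hairpins Mir3074-2 and Mir3074-1.

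**Figure D1:**
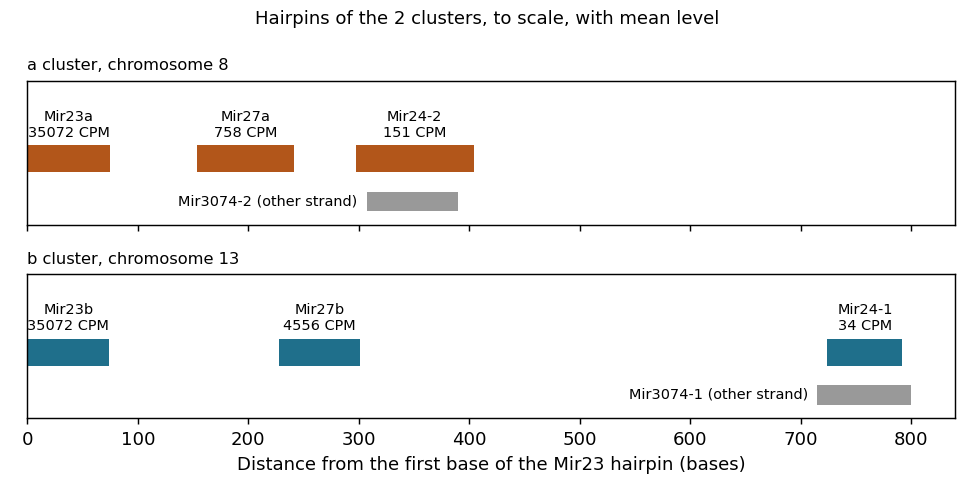
The hairpins of the a cluster (top) and the b cluster (bottom) are drawn to scale by distance in bases from the first base of the Mir23 hairpin, with the mean level in sense counts per 1000000 (CPM, n = 2) above each and the Mir3074 hairpins of the other strand in grey. Levels of placed reads fall along both clusters, from 35072 CPM at Mir23a and Mir23b to 151 CPM at Mir24-2 and 34.2 CPM at Mir24-1. The Mir24-2 and Mir24-1 levels leave out reads inside the run that both hairpins share. Whether the levels would still fall with those reads was not tested.

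Levels are given as sense-strand counts per 1000000 sense counts of all microRNA genes (CPM). They are not divided by hairpin length, since a read covers a mature arm and not the hairpin. Replicate 1 held 3588361 such counts and replicate 2 held 4541373, and a count of 0 allows a level of up to 0.836 and 0.661 CPM. Intervals are exact (Clopper-Pearson) at 95% unless stated, and they and these limits cover counting error only. Mir122, the main microRNA of hepatocytes, made up 0.0892% of the counts of replicate 1 and 19.8% of those of replicate 2, which lowers every other CPM value of replicate 2. The shares and the log2 ratios between libraries are therefore also given with Mir122 out of the totals. That leaves out Mir122 alone. Any other hairpins from the same source would remain in the totals, and this was not tested. Ratios between hairpins of 1 library do not depend on the total.

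The 6 hairpins together held 7.56% ± 2.22 of the microRNA counts (SD, n = 2), 9.14% in replicate 1 and 5.99% in replicate 2. With Mir122 out of the totals they held 9.14% and 7.47%. Nearly all of these placed counts were miR-23, from both clusters. All shares given here leave out miR-24-3p reads within the run that the miR-24 hairpins share. They also leave out any miR-23 or miR-27 3p reads that end before base 19. The a cluster held 4.40% in replicate 1 and 2.80% in replicate 2, and the b cluster 4.74% and 3.19%. With Mir122 out of the totals the shares were 4.40% and 3.49% for the a cluster and 4.74% and 3.98% for the b cluster. The means were 3.60% ± 1.13 for the a cluster and 3.97% ± 1.09 for the b cluster (SD, n = 2). Within each library the b cluster had the larger count, by 1.08 times in replicate 1 and 1.14 times in replicate 2. All 6 hairpins were detected in both libraries.

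Mir23a stood at 43199 CPM in replicate 1 against 26946 CPM in replicate 2, with a mean of 35072 ± 11492 (SD, n = 2). Mir23b stood at 42797 CPM in replicate 1 against 27348 CPM in replicate 2, with a mean of 35072 ± 10924. The 2 forms were next to each other in each library, at ranks 8 and 9 among all microRNA genes in replicate 1 and at ranks 11 and 10 in replicate 2. Both were higher in replicate 1.

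The miR-27 hairpins were far lower, and here the b form led. Mir27b reached 4565 CPM in replicate 1 against 4548 CPM in replicate 2, with a mean of 4556 ± 12.2 (SD, n = 2), at rank 35 by mean level. Mir27a reached 674 CPM in replicate 1 against 843 CPM in replicate 2, with a mean of 758 ± 120 (rank 89). The 2 forms do not overlap, since the higher Mir27a value lies below the lower Mir27b value. The near equality of the Mir27b values depends on the total, and with Mir122 left out of it they were 4569 and 5667 CPM.

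Of the counted miR-24 reads most were placed at the a cluster. Mir24-2 had 309 counts in replicate 1, worth 86.1 CPM, against 981 in replicate 2, worth 216 CPM, with a mean of 151 ± 91.9 CPM (SD, n = 2). Mir24-1 had 108 counts in replicate 1, worth 30.1 CPM, against 174 in replicate 2, worth 38.3 CPM, with a mean of 34.2 ± 5.81 CPM. Both libraries thus gave the order Mir24-2 over Mir24-1. The pair made 417 counts in replicate 1 and 1155 in replicate 2, beside 2734873 and 2781545 reads that mapped to several places. How many of the latter are miR-24-3p was not measured.

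By mean level of placed reads the hairpins stood Mir23b, Mir23a, Mir27b, Mir27a, Mir24-2 and Mir24-1. Mir23b and Mir23a did not differ beyond their spread. At each of the other steps every value of the higher hairpin lay above every value of the lower one.

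**Figure D2:**
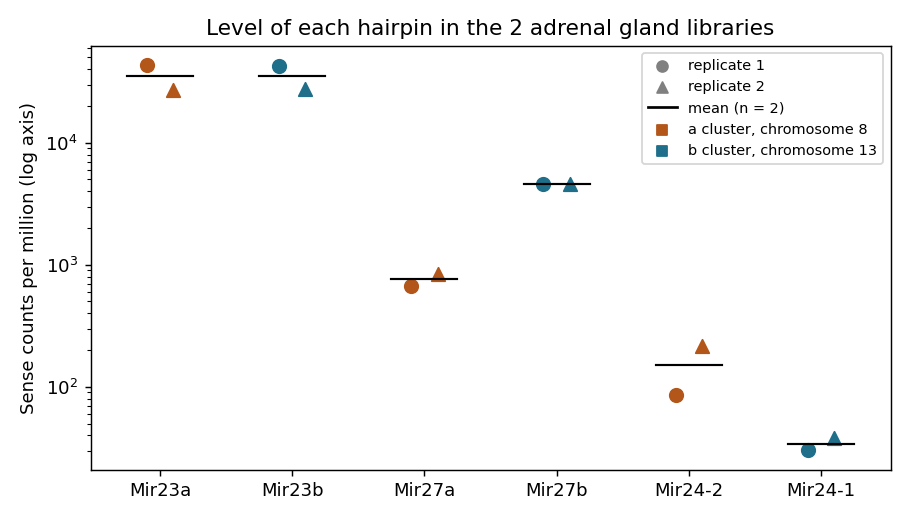
Level of each hairpin in CPM on a log axis, with circles for replicate 1, triangles for replicate 2 and a line at the mean (n = 2), coloured by cluster. Mir23a and Mir23b share the top level at 35072 CPM, Mir27b lies above Mir27a, and Mir24-2 lies above Mir24-1. The miR-24 levels leave out reads inside the run that both hairpins share.

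Ratios within a library put the paralogs side by side at the same depth and free of the total. In placed reads the b form led for miR-27, and for miR-23 the forms were near even. For miR-24 the a form led among the reads that do not lie inside the shared run. Mir23a had 1.01 times the counts of Mir23b in replicate 1 (1.00 to 1.02) and 0.985 times in replicate 2 (0.978 to 0.993). The order of the miR-23 forms thus turned between the libraries, by a margin small beside the spread of either form. Mir27b had 6.77 times the counts of Mir27a in replicate 1 (6.49 to 7.07) and 5.40 times in replicate 2 (5.21 to 5.59). Mir24-2 had 2.86 times the counts of Mir24-1 in replicate 1 (2.29 to 3.60) and 5.64 times in replicate 2 (4.79 to 6.66). The a cluster gave 50.2% of miR-23 counts in replicate 1 and 49.6% in replicate 2. It gave 12.9% and 15.6% of miR-27 counts, and 74.1% and 84.9% of the miR-24 counts that could be placed.

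Within each cluster the counts were far from even, although its hairpins lie on the same strand under 1 kb apart. Mir23a had 64.1 times the counts of Mir27a in replicate 1 (61.6 to 66.8) and 32.0 times in replicate 2 (31.0 to 33.0). Mir23b had 9.38 times the counts of Mir27b in replicate 1 (9.23 to 9.53) and 6.01 times in replicate 2 (5.93 to 6.10). In both clusters and both libraries the first hairpin therefore led the second, and by more in the a cluster. Mir27a had 7.83 times the counts of Mir24-2 in replicate 1 (6.95 to 8.84) and 3.90 times in replicate 2 (3.64 to 4.19). Mir27b had 152 times the counts of Mir24-1 in replicate 1 (126 to 185) and 119 times in replicate 2 (102 to 139). The ratios to miR-24 leave out its reads in the shared run.

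In the placed counts both clusters were less dominated by miR-23 in replicate 2. The ratio of Mir23a to Mir27a was 2.01 times as large in replicate 1 as in replicate 2 (1.90 to 2.11, a log-scale 95% interval of the 4 counts), and that of Mir23b to Mir27b 1.56 times (1.53 to 1.59). Mir23a made up 98.3% of the placed counts of its cluster in replicate 1 and 96.2% in replicate 2. Mir23b made up 90.3% and 85.6% of its own. With 2 libraries this is a difference between these libraries and has no replicate check.

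**Figure D3:**
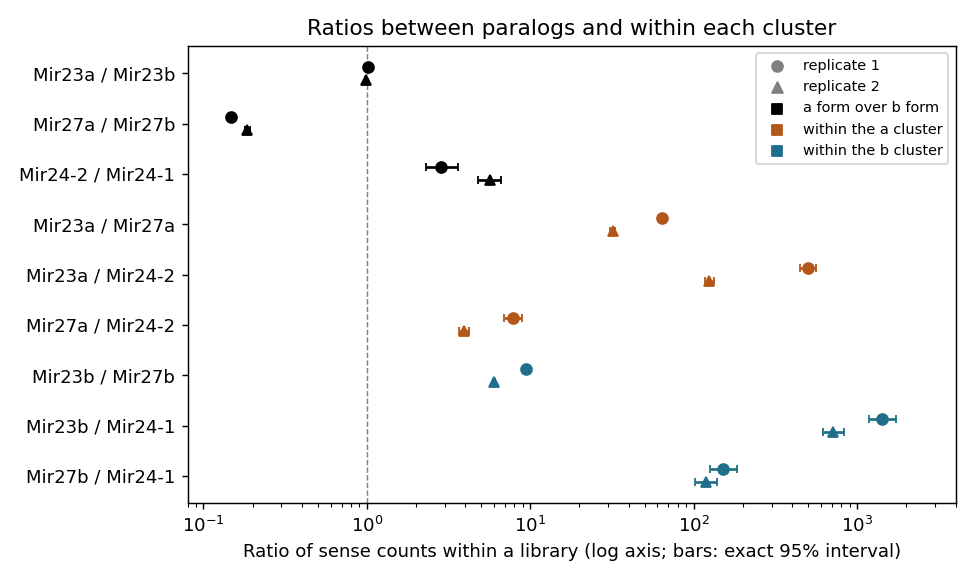
Ratio of sense counts between hairpins of the same library on a log axis, with circles for replicate 1, triangles for replicate 2 and bars for exact 95% intervals; the dashed line marks equal counts. The miR-23 forms lie close to that line, and for all 6 ratios within a cluster the replicate 2 value lies below the replicate 1 value.

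For scale, 113 pairs of detected hairpins that follow each other on the same strand under 10 kb apart were described in the same way. Their levels differed by a median of 2.13 on the log2(CPM + 1) scale. In placed reads Mir27b and Mir24-1 differed by 7.02, the third largest of the 113. That rank depends on the Mir24-1 level, which leaves out miR-24 reads in the shared run, as does that of Mir24-2. Mir23a and Mir27a differed by 5.53. Mir23b and Mir27b differed by 2.94 and Mir27a and Mir24-2 by 2.32, both near that median. The difference between libraries moved apart within a pair by a median of 0.57 on the log2 scale over the 113. It was 1.00 for Mir23a and Mir27a, 0.99 for Mir27a and Mir24-2, 0.64 for Mir23b and Mir27b and 0.34 for Mir27b and Mir24-1, of which the last lies below that median. Among 6 other pairs of paralogs, Mir16-1 had 3.15 and 3.07 times the counts of Mir16-2 in replicates 1 and 2, and Mir181b-2 had 90.3 and 70.8 times those of Mir181b-1. In placed reads, none of these 6 pairs was as near to even in both libraries as Mir23a and Mir23b. Reads that map to several places are left out of these pairs too. Where such copies share a mature sequence, their ratio covers only the reads that could be placed, so the comparison is not like for like.

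Each gene's counts in the 2 libraries were then set against the library totals by an exact binomial test, two-sided, with Benjamini-Hochberg adjustment over the 352 detected genes at a threshold of 0.05. Such a test is about these libraries and no condition. It called 4 of the 6 hairpins, where it called 67.0% of all detected genes, so that the members' share is near the background. Of the members 2 were lower in replicate 2 (36.6% of all detected genes were) and 2 were higher (30.4%). The median log2 ratio over the members was 0.16 and over all detected genes -0.04.

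The paralogs of miR-23 differed between the libraries to nearly the same extent. Mir23a was 1.60-fold higher in replicate 1 (1.59 to 1.62), a log2 ratio of replicate 2 over replicate 1 of -0.68, and Mir23b 1.56-fold (1.55 to 1.58), a log2 ratio of -0.65. By the binomial test the adjusted p of both was under the smallest number the computation can hold. With Mir122 out of the totals the log2 ratios were -0.36 and -0.33, and both were still called lower in replicate 2. That change of totals moved the median detected gene by 0.30, and relative to that median Mir23a stood at -0.64 with Mir122 in the totals and -0.63 without it. A change of total shifts all genes alike apart from the pseudocount, so these values were bound to be close and are no check.

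Mir27a was 1.25-fold higher in replicate 2 (1.19 to 1.32), a log2 ratio of 0.32 (binomial test, adjusted p = 1.31e-17), and 0.64 with Mir122 out of the totals. Mir27b had a log2 ratio of -0.01 (adjusted p = 0.80 by the binomial test), but 0.31 and a call as higher with Mir122 out of the totals. Relative to the median gene it stood at 0.03 and 0.04, which a change of total moves only through the pseudocount. Mir24-2 was 2.51-fold higher in replicate 2 (2.21 to 2.86), a log2 ratio of 1.32 (binomial test, adjusted p = 1.45e-50), and 1.63 with Mir122 out of the totals. Mir24-1 had a log2 ratio of 0.34, which did not pass (binomial test, adjusted p = 0.079), but 0.65 with Mir122 out of the totals, which did (adjusted p = 0.00028). With Mir122 out, all 6 were called, beside 71.3% of the detected genes. Of the members 4 were then higher in replicate 2, as were 50.0% of detected genes, and 2 lower, as were 21.3%, and the split of the calls over all genes went from 45.3% to 70.1% higher in replicate 2.

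**Figure D4:**
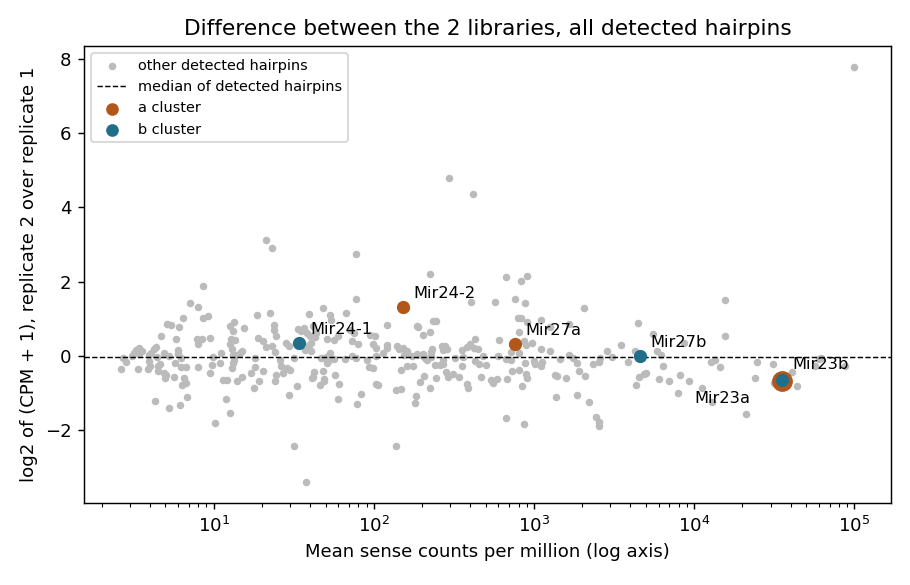
Each detected hairpin is plotted by its mean CPM (log axis) and its log2 ratio of replicate 2 over replicate 1, with the a cluster in orange, the b cluster in blue, other hairpins in grey and the median of all detected hairpins dashed. Mir23a and Mir23b fall on the same spot at -0.68 and -0.65, Mir27b lies near the median, and Mir24-2 lies above it at 1.32; the highest grey point is Mir122.

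**Figure D5:**
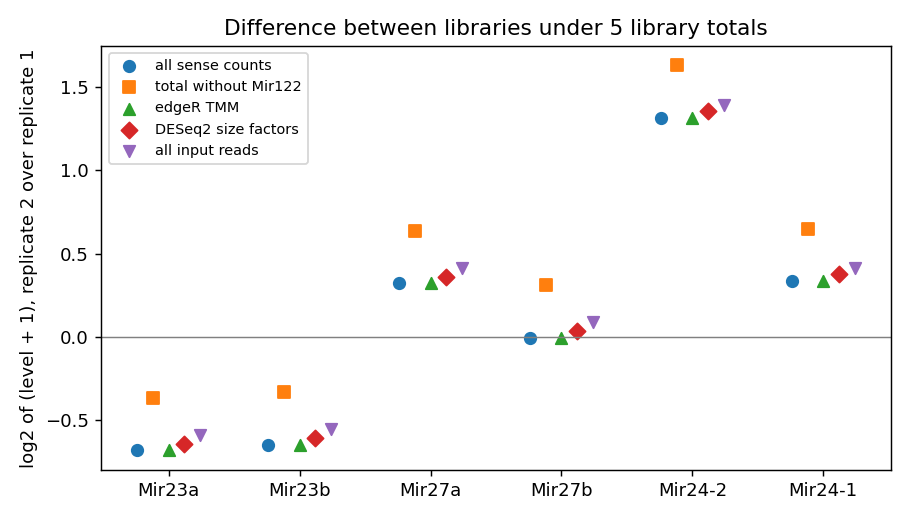
The log2 ratio of replicate 2 over replicate 1 of each hairpin is shown under 5 library totals (symbols). Mir23a and Mir23b stay below 0 and Mir27a, Mir24-2 and Mir24-1 above 0 under all 5, while Mir27b changes sign, from -0.01 with all sense counts to 0.31 without Mir122.

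On the opposite strand, Mir3074-1 had 36 sense counts in replicate 1 and 45 in replicate 2. Mir3074-2 had 0 in both, which allows up to 0.836 and 0.661 CPM where its reads can be placed. The choice of strand matters for miR-24. In the column that counts reads on either strand, Mir24-2 and Mir24-1 had 0 counts in both libraries, since their reads also lie over a Mir3074 hairpin and were set aside as ambiguous. Mir23a, Mir23b, Mir27a and Mir27b had the same counts in both columns and no antisense count.

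The seed of miR-27 also occurs at bases 1 to 7 of miR-128-3p, made from Mir128-1 and Mir128-2. These were minor next to Mir27b, with 75.8 and 44.9 CPM in replicates 1 and 2 for Mir128-1 and 8.08 and 2.42 CPM for Mir128-2. Both were called lower in replicate 2, with Mir122 in or out of the totals. No other mature sequence of the RefSeq table, outside the members, held the miR-23 or miR-27 seed within its first 9 bases. The seed of miR-24-3p is shared with 4 others, from Mir5124b, Mir6369, Mir6410 and Mir6413, each at 0 counts in both libraries.

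Outside the 6 members, the hairpins nearest to each in level over the 2 libraries were found by Euclidean distance on log2(CPM + 1), and were the same for both miR-23 forms. Mir143, abundant in smooth muscle, lay 0.21 from Mir23a and 0.19 from Mir23b, with 45599 and 30787 CPM in replicates 1 and 2. Mir26b was next, at 0.23 and 0.24. Nearest to Mir27a were Mir221 (0.19) and Mir195a (0.22), to Mir27b Mirlet7f-2 (0.16) and Mir7b (0.35), to Mir24-2 Mir500 (0.11) and Mir574 (0.47), and to Mir24-1 Mir467c (0.22) and Mir129-2 (0.25). With 2 libraries such nearness says little beyond a like level.

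Hairpins of other cell types also differed between the libraries, and their part in the values above was not tested. Calls in the lists below stand beside 36.6% of all detected genes called lower in replicate 2 and 30.4% called higher. With Mir122 out of the totals these background shares were 21.3% lower and 50.0% higher. Of 5 endothelial hairpins 4 were detected, and the list held 6.80% of counts in replicate 1 against 6.84% in replicate 2, and 6.81% against 8.52% with Mir122 out of the totals. Mir130a, Mir221 and Mir222 were called higher in replicate 2 and Mir126a, at 62826 and 60799 CPM, lower, but with Mir122 out of the totals all 4 were called higher. The miR-23 forms were called lower in replicate 2 under either total. Both smooth muscle hairpins, Mir143 and Mir145a, were called lower in replicate 2 under either total, and the pair held 4.96% in replicate 1 and 3.19% in replicate 2, or 4.96% and 3.98% with Mir122 out. The 6 leukocyte hairpins were all called lower, with 0.501% and 0.283% in sum, and with Mir122 out 5 were called lower, with 0.502% and 0.353%. The erythroid pair Mir451a and Mir144 held 0.149% and 0.125%, both called lower. With Mir122 out neither was called, and the pair held 0.149% and 0.155%. Of 5 neuroendocrine hairpins, among them Mir375 at 33380 and 29004 CPM, 4 were called lower and 1 higher, and 3 and 2 with Mir122 out. The list held 4.01% and 3.38%, or 4.02% and 4.22% with Mir122 out. Of 6 striated muscle hairpins none was detected in both libraries, Mir133a-2 and Mir133b were at 0, and the list held 0.0993% in replicate 1, nearly all Mir206, and 6.61e-05% in replicate 2, or 0.0994% and 8.23e-05% with Mir122 out.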

How the data were processed

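The authors deposited raw read counts for each microRNA gene, on mm10 with GENCODE M21 per the text files beside them. The aligner was not given in the sources used here. The 4 summary lines were kept out of totals. Of the 3 count columns the second, sense reads, was used, and the others hold either-strand and antisense reads. Sense counts numbered 3588361 and 4541373 in replicates 1 and 2. Genes that reached 10 counts in each library were tested, log2 ratios used a pseudocount of 1 CPM, and the binomial test and the ratio interval were tested on simulated data. Members and lists were chosen with earlier results of these data known. Named are the members, the hairpins opposite them, the 2 nearest in level to each, Mir122, leading members of 8 lists, paralog pairs and hairpins holding a member's seed; the 113 neighbouring pairs were described after values were seen. No edgeR test was possible with 1 group. Alternatives were totals without Mir122, of all input reads, with edgeR 4.0.16 TMM or DESeq2 1.42.0 size factors, the either-strand column, count minimums of 3 and 30, pseudocounts of 0.1 and 10 CPM, and each library left out. Tests ran in scipy 1.17.1 under Python 3.11.15, with pandas 2.3.3 and numpy 2.4.6, plots in matplotlib 3.10.9, and size factors in R 4.3.3.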

Additional observations from a re-analysis of the deposited data

Results flagged for a closer look

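Antisense counts entered no comparison. At Mir24-1 they came to 36 in replicate 1 and 45 in replicate 2, above the 3 counts that a count of 0 allows, and these equal the sense counts of Mir3074-1, annotated opposite it. The other 5 members had no antisense count in either library. There was 1 group, so counts in a control could not be set beside these.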

How the results depend on the processing

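Of 104 recomputed values 87 kept direction and side of the threshold or moved by less than the spread between replicates. The counts of calls have neither a direction nor such a spread, and they were also placed among the 87. Some values had little room to change. A mean over 2 libraries always moves by less than their SD when 1 is left out. The pseudocount does not enter the binomial test, and the edgeR TMM factors were 1.00 in both libraries. Without Mir122 in the total, with DESeq2 size factors and with all input reads as the total, the log2 ratio of Mir27b between libraries turned to 0.31, 0.035 and 0.087, and that of Mir24-1 passed the test at 0.65, 0.38 and 0.41. Under each of these 3 all 6 members were called, against 4, beside 71.3%, 65.9% and 65.9% of detected genes, and 3 were called with the either-strand column, where the miR-24 hairpins have no count and gave no value. Calls over all genes ran from 210 to 251 against 236. Leaving out 1 library gave a log2 ratio of Mir23a over Mir23b from -0.021 to 0.013, which changes sign. Per 1000000 input reads means were 14893 for Mir23a, 14898 for Mir23b, 326 for Mir27a, 1949 for Mir27b and 14.7 for Mir24-1, and the clusters held 1.53% and 1.69%. Mir27b had 5118 CPM without Mir122 in the total. With the either-strand column it had 5418 CPM and Mir27a 901 CPM. Depth limits Mir24-1 most, with 108 and 174 counts. No paired analysis was possible because there is 1 group.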
